A study of Mus musculus with 4 samples.

Results

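RAD21 sites at the 3′ ends of protein-coding genes numbered 500 among 18691 autosomal RAD21 sites of mouse embryonic stem cells (ESCs) and embryoid bodies (EBs), a share of 2.68% (exact Clopper-Pearson 95% interval 2.45 to 2.92%). A site was counted here when its peak summit lay within 1 kb of the annotated 3′ end of a protein-coding gene (genome build mm9, GENCODE vM1 annotation) and more than 1 kb from every annotated transcription start. An EB summit within 250 bp of an ESC summit was joined to it and counted once. The requirement on starts removed 63 sites that were close to a 3′ end and to a start at the same time. Of the 500 sites, 203 were listed in both cell types, 225 in ESCs only and 72 in EBs only. They lay at 511 of the 21418 protein-coding 3′ ends, since 21 sites were within 1 kb of more than 1 end, and 10 genes had 2 sites at their 3′ end.

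RAD21 is the subunit that closes the ring of cohesin, the complex that holds sister chromatids together and folds interphase chromosomes into loops. On mammalian chromosomes cohesin is mostly found where the zinc finger protein CTCF binds DNA, and the direction of the CTCF motif sets the side on which loops are held. RNA polymerase transcribes past the cleavage and polyadenylation site that defines the 3′ end of an mRNA before it is released, and in budding yeast cohesin accumulates where transcription from neighbouring genes converges, which is why opposing gene pairs are described apart below.

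The ESCs were of the mouse line R1/E, and the EBs were aggregates in which these cells differentiate into derivatives of the germ layers. Both groups carried a bacterial artificial chromosome with RAD21 fused at its C terminus to a GFP-containing tag, added to cells that kept their own Rad21 gene, and GFP-positive transfectants had been sorted. The ESC group was undifferentiated (day 0, grown with LIF), and the EB group was taken at day 12 of hanging drop culture. From each, chromatin was precipitated once with a goat antibody to GFP and once with goat IgG as a control, which the labels also describe as input DNA. There was thus 1 library in each of 4 groups and no replicate, so no test between conditions was possible, and every interval given below covers counting error only. An EB holds many cell types, and the antibody reports on the tagged copy of RAD21 alone.

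The ESC RAD21 library held 13714772 autosomal reads, the EB RAD21 library 7740389, the ESC IgG library 12602155 and the EB IgG library 6929293, so that a site of equal height was harder to detect in EBs. The IgG libraries differed between chromosomes. ESC IgG reads exceeded EB IgG reads 1.19-fold on chromosome 6, 1.23-fold on chromosome 8 and 1.14-fold on chromosome 11 after scaling to autosomal reads, against 0.911 to 1.04-fold on the other autosomes. These 3 chromosomes held 116 of the 500 sites, and values without them are given where they matter.

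The sequences under the summits were searched for CTCF motifs. A weight matrix of 20 positions was learned on the sites of odd-numbered autosomes and searched on the even-numbered ones, and the reverse, and its most frequent bases were the same in both.

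CTCF matrix: GTGGCCACCAGGGGGCGCCA

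The matches below are examples. They belong to some of the sites of highest score, to a convergent gene pair with a site at either end, and to sites with very different reads in the 2 cell types. Those of Slc37a2 and Hspa1b pass only the looser of the 2 score thresholds given below. The others pass the stricter one, as did matches at 46.8% of all 500 sites. Each is written 5′ to 3′ on the strand of the match in mm9, with the 20 bases of the match in capitals and 5 flanking bases on either side in lower case.

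Nt5m, chr11:59693600-59693629, plus strand: taaagATGGCCACTTGATGGCGCCAgagga

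Ebf1, chr11:44821797-44821826, minus strand: tggctCATGCCAGCAGAGGGCAGCAgtacg

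Slc37a2, chr9:37037689-37037718, minus strand: ttctgTAGGCCACTAGATGGTGATAgcatc

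Chrm1, chr19:8757722-8757751, minus strand: cttaaATTGCCAGCAGGTGGCGCTAaaatg

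Eef1b2, chr1:63227728-63227757, plus strand: tcatgAAGGCCAGCAGAGGGCAGTGttagg

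Gpr1, chr1:63229391-63229420, plus strand: tcagaACGGCCACCAGAGGGCAGCCagaaa

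Boc, chr16:44484366-44484395, plus strand: tccttTCCACCAGCAGATGGCGGCCttatc

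Hspa1b, chr17:35093447-35093476, plus strand: aaaaaATGTACACAGGGTGGCAGTGtagac

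Tes, chr6:17055878-17055907, plus strand: gtgtcATGTACAGCAGGGGGCACTGtctcc

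Rfpl4, chr7:5061062-5061091, plus strand: gtatgGAGGCCAGCAGAGGGCACTGgattc

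Galnt10, chr11:57601597-57601626, plus strand: aggtaGCAACCACCAGAGGGCGCTAtggac

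D930020B18Rik, chr10:121131787-121131816, plus strand: ttgtaGAGGCCAGAAGAGGGCGGCAttgga

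RAD21 sites were denser at 3′ ends than elsewhere on the autosomes. The 34.96 Mb of sequence that met the rule held 14.3 sites per Mb (exact Poisson 95% interval 13.1 to 15.6), and the rest of the autosomal sequence held 7.71 per Mb, a ratio of 1.85 (1.69 to 2.03). Against all autosomal sequence the ratio was 1.86 (1.64 to 2.10) within 500 bp of the end, 1.83 within 1 kb and 1.82 (1.71 to 1.95) within 2 kb. The excess was thus not confined to the sequence nearest the end. The sequence around 3′ ends had a GC content of 44.5%, against 41.9% over all autosomes, and site density was higher in sequence of higher GC content. When positions were split into 5 classes by the GC content within 250 bp, the density went from 6.98 to 23.6 sites per Mb between the lowest and the highest class at 3′ ends, and from 4.15 to 14.5 per Mb elsewhere. The density at 3′ ends exceeded that of the same class elsewhere 1.68-fold (1.30 to 2.15) in the lowest class, 1.49-fold (1.18 to 1.86) in the third, 1.70-fold (1.401 to 2.05) in the fourth and 1.63-fold (1.396 to 1.89) in the highest. In the second class the ratio was 1.19 and its interval, 0.889 to 1.57, reached below 1. By listing, the excess was 1.96-fold (1.70 to 2.26) for sites of both cell types, 1.98-fold (1.72 to 2.26) for sites of ESCs only and 1.37-fold (1.07 to 1.74) for sites of EBs only.

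**Figure D1:**
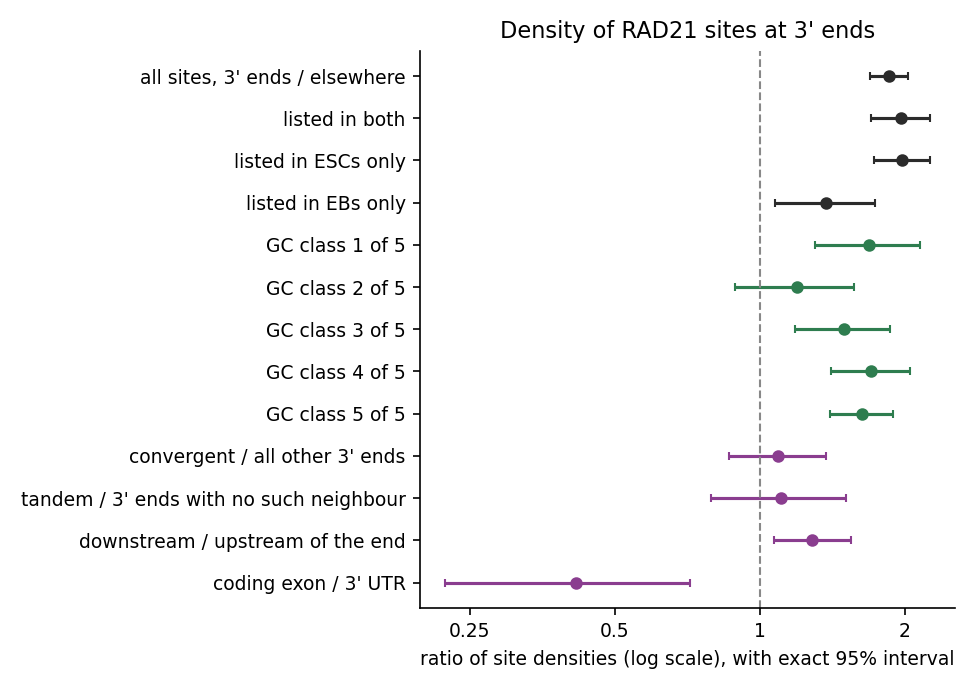
Ratios of RAD21 site density (x axis, log scale) with exact 95% intervals (bars). Black points compare 3′ ends with all other autosomal sequence, for all sites and by listing, green points do so within 5 classes of GC content, and purple points compare kinds of 3′ end sequence with each other. All black ratios and 4 of the 5 green ones lie above 1 with their intervals, the ratio for convergent ends does not, and coding exons lie below 1.

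Away from listed sites, RAD21 reads at 3′ ends were close to IgG reads. At 17150 ends without a site within 2 kb, the reads within 1 kb of the end amounted to a RAD21 to IgG ratio of 1.01 in ESCs and 1.01 in EBs. At the 498 ends that had one of the 500 sites and were themselves over 1 kb from any start, the ratio was 3.20 in ESCs and 3.72 in EBs. Since sites were called for this excess, and the other ends were chosen for having none, both pairs of values are a description. Only 2.39% of protein-coding 3′ ends (511 of 21418) had a site.

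**Figure D2:**
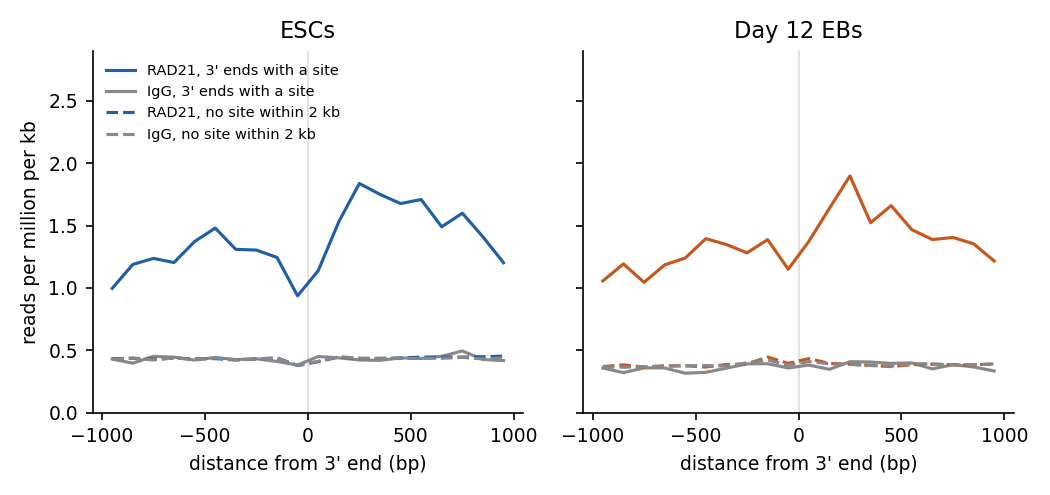
Reads per kb, scaled to 1000000 autosomal reads (y axis) in 100 bp steps along the gene, from 1000 bp before to 1000 bp after the 3′ end (x axis), in ESCs (left, blue) and EBs (right, orange), with IgG in grey. Solid lines are the 498 ends with a RAD21 site and dashed lines the 17150 ends without one within 2 kb, where RAD21 and IgG lie on top of each other.

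Sites were more frequent just after the end of the gene than within it. Downstream of the end, 293 sites gave 15.99 per Mb (14.2 to 17.9), and upstream 207 sites gave 12.4 per Mb (10.8 to 14.3), a ratio of 1.29 (1.07 to 1.54). The median summit lay 180.5 bp downstream of the annotated end (quartiles 401 bp upstream and 574 bp downstream). Around the end itself there were few sites. The 3 steps of 100 bp from 200 bp upstream to 100 bp downstream held 12, 13 and 16 sites, or 6.99, 7.37 and 8.74 per Mb, close to the 7.71 per Mb of the rest of the autosomes. The next step downstream held 38 sites, 20.4 per Mb (14.4 to 27.9), and the step from 300 to 200 bp upstream held 30, 17.7 per Mb (11.9 to 25.2). This gap was singled out after the values were seen. ESC IgG reads at ends without a site were also lower in the last 100 bp of the gene. They were 0.380 per kb there after scaling to 1000000 autosomal reads, against 0.436 in the 100 bp before. This ESC value was the lowest of the 20 steps, where the others ran from 0.413 to 0.449. In EBs the IgG values of the same steps were 0.382, within the range of the others, and 0.424, the highest of the 20. The first 100 bp after the end held 0.411 in EBs. The part of these IgG levels in the gap was not tested.

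CTCF matches were also denser downstream of the end. Matches were taken at a score that a share of 1e-05 of all autosomal positions and strands reached, the stricter of the 2 thresholds used. By this threshold there were 21.5 matches per Mb upstream and 39.0 per Mb downstream of the end, a ratio of 1.81 (1.59 to 2.06). At the looser threshold, a rate of 1e-04, the densities were 253.7 and 280.8 per Mb and the ratio was 1.107 (1.062 to 1.153). The density of stricter matches rose from 22.4 per Mb in the first 100 bp after the end to 42.3 per Mb in the next. The last 200 bp of the gene held 18.6 and 22.7 stricter matches per Mb, within the range of the upstream side. Looser matches were least dense in the 2 steps next to the end, with 196.8 per Mb in the last 100 bp of the gene and 223.9 in the first 100 bp after it, against 243.6 to 326.2 in the other steps. A summit within 150 bp was found for 5 of the 32 stricter matches from 200 to 100 bp upstream and for 4 of the 40 in the last 100 bp.

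**Figure D3:**
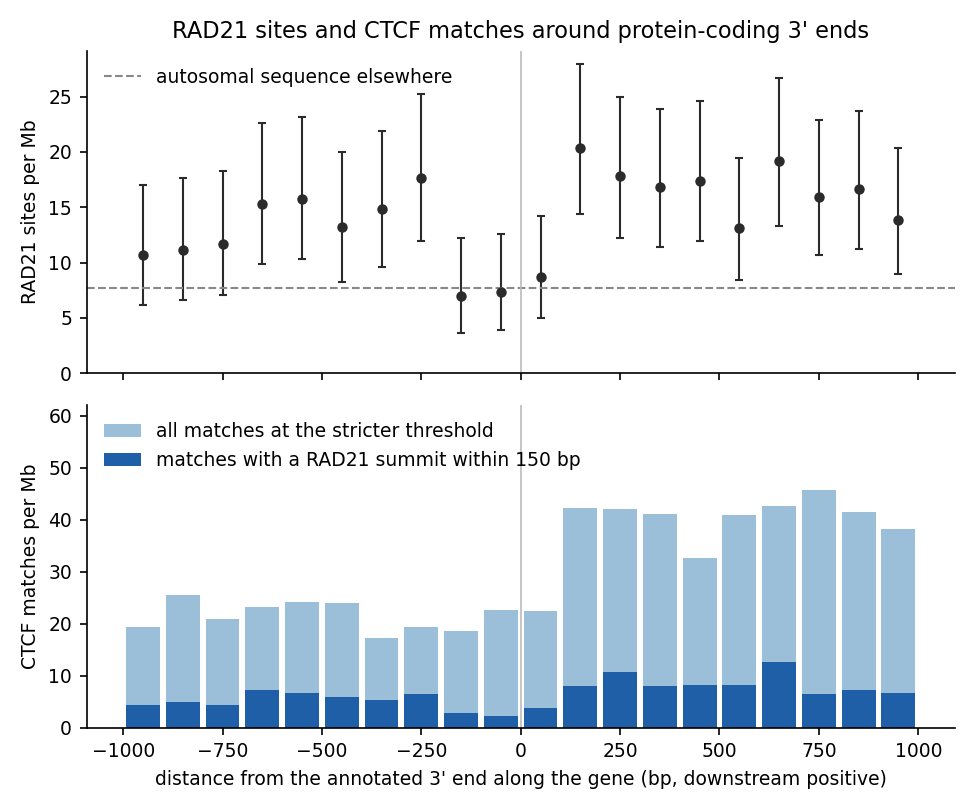
RAD21 sites per Mb with exact Poisson 95% intervals (upper panel) and CTCF matches per Mb at the stricter threshold (lower panel, dark part with a RAD21 summit within 150 bp) in 100 bp steps of distance from the 3′ end, downstream positive. RAD21 sites fall to the level of the rest of the autosomes (dashed line) in the 3 steps around the end, and CTCF matches rise from 22.4 to 42.3 per Mb at 100 bp downstream.

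By annotation, 258 summits were intergenic, 158 lay in a 3′ UTR, 57 in an intron, 14 in a coding exon, 12 in a non-coding exon and 1 in a 5′ UTR. Corrected for the sequence available at 3′ ends, intergenic sequence held 16.4 sites per Mb (14.4 to 18.5) and 3′ UTRs held 13.8 (11.7 to 16.1), a ratio of UTR to intergenic of 0.843 (0.687 to 1.03). Coding exons stood apart with 5.73 sites per Mb (3.13 to 9.62), or 0.415 of the density in 3′ UTRs (0.222 to 0.718). The few non-coding exons near 3′ ends held 41.0 sites per Mb (21.2 to 71.7). Intergenic sequence next to 3′ ends was 2.12-fold (1.87 to 2.40) denser in sites than autosomal sequence away from 3′ ends.

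Convergent gene pairs, in which 3′ ends on opposite strands face each other within 5 kb, did not hold a detectable excess of sites. There were 93 sites at 89 such pairs, 15.4 per Mb (12.4 to 18.8), and 14.1 per Mb (12.7 to 15.5) at all other 3′ ends, a ratio of 1.09 with an interval of 0.862 to 1.37. Tandem ends, followed within 5 kb by the start of a gene on the same strand, held 45 sites or 15.4 per Mb, 1.10 times the density of ends with neither neighbour (0.791 to 1.51). Between the 2 ends of a convergent pair there were 39 sites, 19.5 per Mb (13.9 to 26.7), and 54 sites lay inside the genes of the pair, 13.3 per Mb (10.01 to 17.4). The ratio of 1.46 had an interval that included 1 (0.945 to 2.25). For sites listed in EBs only the ratio of convergent to other ends was 1.59 (0.879 to 2.76), for sites of ESCs only 0.910 (0.618 to 1.30) and for sites of both 1.14 (0.780 to 1.62). At convergent ends without a site the RAD21 to IgG ratio was 1.04 in ESCs and 1.03 in EBs, against 0.997 and 1.00 at other ends without one. Of the 93 sites, 13 belonged to pairs whose genes overlap.

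The convergent pair with the most RAD21 reads was Eef1b2 and Gpr1 on chromosome 1, a translation elongation factor and a G protein-coupled receptor whose 3′ ends are 2205 bp apart. Its first site, 716 bp downstream of Eef1b2, held 35 ESC RAD21, 42 EB RAD21, 8 ESC IgG and 2 EB IgG reads within 250 bp of the summit. The second, in the 3′ UTR of Gpr1 and 260 bp before its end, held 21 ESC RAD21, 23 EB RAD21, 4 ESC IgG and 2 EB IgG reads. Both CTCF matches printed above are on the plus strand and thus point the same way, along Eef1b2 and against Gpr1. Both sites were about equally high in ESCs and EBs by raw count, although the EB library was the smaller one. Relative to autosomal reads the EB to ESC ratio was 2.13 (1.33 to 3.43) at the first and 1.94 (1.03 to 3.69) at the second. The median over all 7175 autosomal sites of both lists was 1.31, with 1 read added.

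Next came Fgfr1, a receptor of fibroblast growth factors, facing Letm2. The site in its 3′ UTR (chromosome 8 at 26685785) had 50 ESC RAD21, 44 EB RAD21, 9 ESC IgG and 1 EB IgG reads. Between Boc, a co-receptor of the Hedgehog pathway, and Wdr52 (chromosome 16 at 44484395), 51 ESC RAD21, 41 EB RAD21, 3 ESC IgG and 5 EB IgG reads were found. The site after 2610020H08Rik, opposite Dcun1d3, held 50 ESC RAD21, 35 EB RAD21, 8 ESC IgG and 3 EB IgG reads. At Kcnd3, a voltage-gated potassium channel, opposite the RNA helicase gene Ddx20, there were 40 ESC RAD21, 36 EB RAD21, 6 ESC IgG and 1 EB IgG reads. All 6 sites of these 5 pairs were listed in both cell types, beside 41.9% of all 93 convergent sites. In each the RAD21 reads exceeded the IgG reads of the same cells. The pairs were picked for RAD21 reads summed over both cell types, and sites were called for RAD21 over IgG. Both observations thus describe the choice.

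Stricter CTCF matches were more common at 3′ end sites than at other RAD21 sites. Of the 500 sites, 234 (46.8%, 42.4 to 51.3%) had a match centred within 150 bp of the summit, and 39.4% of the 18191 other sites did, a difference of 7.43 percentage points (Newcombe 95% interval 3.04 to 11.9). Windows of the same length placed at every position of the 3′ end sequence held one in 0.914% of cases, and over all autosomes in 0.589%. At the looser threshold (a rate of 1e-04), 445 sites (89.0%) had a match, against 85.6% of the other sites, a difference of 3.39 points (0.2995 to 5.89), with 7.54% of 3′ end windows and 5.45% of autosomal windows. Sites within 1 kb of a transcription start had fewer matches, 29.0% and 73.8% by the 2 thresholds, and the difference from 3′ end sites was 17.8 points (12.8 to 22.7) by the stricter one. Since start sites are among the other sites, the comparison was also made with the 16767 sites away from starts and ends. The difference was then 6.55 points (2.16 to 10.998) by the stricter threshold and 2.38 points by the looser one, where its interval included 0 (-0.704 to 4.89). The 72 sites listed in EBs only had matches in 30.6% (20.2 to 42.5%) and 69.4% (57.5 to 79.8%) of cases, and the 3534 other sites listed in EBs only had them in 20.0% and 65.4%. Within the 5 classes of GC content the stricter share at 3′ end sites was 24.2, 46.2, 54.3, 50.9 and 49.2% from lowest to highest, beside 32.2, 40.5, 42.2, 41.1 and 42.1% of all sites, so that in the lowest class it was below that of all sites. Sites downstream of the end had a stricter match more often than sites upstream, in 50.9% and 41.1% of cases, a difference of 9.79 points (0.915 to 18.4).

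Matches at 3′ ends also had a summit more often than matches elsewhere. Of 1072 stricter matches in 3′ end sequence, 231 (21.5%) lay within 150 bp of a RAD21 summit, and 15.7% of 46168 matches elsewhere did, a difference of 5.89 points (3.51 to 8.47). The matches themselves were 1.57-fold (1.47 to 1.66) denser in 3′ end sequence than elsewhere. Convergent and other ends did not differ detectably in the share of stricter matches with a summit, with a difference of 2.17 points (-3.80 to 8.92). Between the downstream and upstream sides the difference was -2.88 points (-8.31 to 2.27) for stricter matches and 0.923 points (0.0167 to 1.82) for looser ones.

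The direction of the CTCF match was compared with the direction of transcription. Of the stricter matches at the sites, 131 of 234 (56.0%, 49.4 to 62.4%) were on the strand of the gene, and of the looser ones 252 of 445 (56.6%, 51.9 to 61.3%). The share was also computed for matches without a RAD21 summit. Downstream, 63.9% (55.6 to 71.7%) of 147 stricter matches with a summit and 55.7% (51.5 to 59.9%) of 567 without one were on the gene strand, and upstream 45.2% (34.3 to 56.5%) of 84 with and 46.4% (40.3 to 52.4%) of 274 without. At the looser threshold, matches with a summit were on the gene strand 7.68 points more often than those without (3.14 to 12.1), with 8.78 points (1.68 to 15.7) upstream and 6.34 points (0.428 to 12.0) downstream. At the stricter threshold the difference was 4.47 points and its interval included 0 (-2.80 to 11.5). Most summits lay on the 3′ side of the motif as written above, 75.2% at 3′ end sites and 79.6% at the other sites for stricter matches, at a median offset of 41.5 bp and 47.5 bp.

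**Figure D4:**
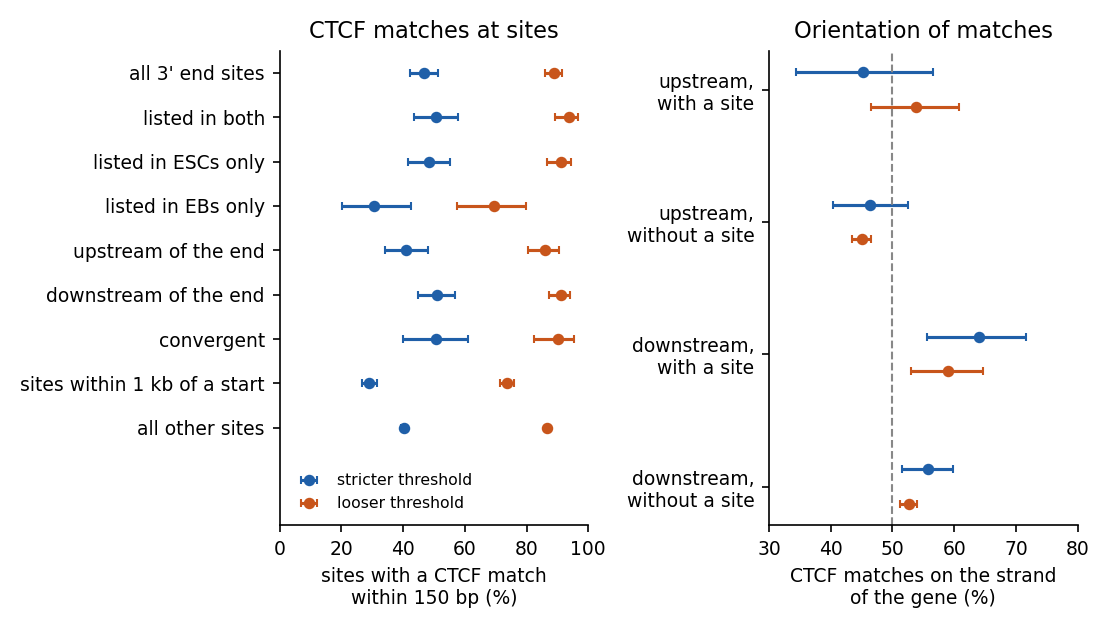
Left, share of sites with a CTCF match within 150 bp of the summit (x axis, percent) at the stricter (blue) and the looser (orange) threshold with exact 95% intervals, for all 3′ end sites, for subsets of them and for other RAD21 sites. Right, share of CTCF matches in 3′ end sequence that lie on the strand of the gene, by side of the end and by whether a RAD21 summit is within 150 bp, where the dashed line marks 50%. Sites listed in EBs only have the lowest shares among the 3′ end sites at both thresholds, and downstream matches lie to the right of the line with and without a site.

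Between ESCs and EBs, the listing of 3′ end sites differed from that of other sites in the EB-only class. Both lists held 203 of the 500 sites (40.6%), beside 38.4% of all autosomal sites, a difference from the other sites of 2.27 points (-2.003 to 6.69). ESCs alone listed 225 (45.0%, beside 42.3% of all sites), and EBs alone listed 72 (14.4%, beside 19.3%), which was 5.03 points below the other sites (interval of the difference -7.89 to -1.63). By reads within 250 bp of the summit, scaled to autosomal reads with 1 read added, 72 sites (14.4%) were at least 2-fold higher in EBs, where 19.7% of all sites were. At least 2-fold lower in EBs were 115 (23.0%), beside 23.2% of all sites. The exact interval of the EB to ESC ratio lay above 1 at 76 sites (15.2%, beside 20.3% of all sites) and below 1 at 92 (18.4%, beside 18.2%), and 7 sites had no EB read (1.4%, beside 2.01%). Among the 203 sites of both lists it lay above 1 at 39 (19.2%) and below at 9 (4.43%), beside 21.2% and 1.71% of all sites of both lists.

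These shares moved with GC content. The median GC content within 250 bp was 48.1% at 3′ end sites and 44.7% at the other sites, and the EB IgG library held relatively fewer reads in sequence of high GC content, with a pooled EB to ESC IgG ratio of 1.28 at sites of the lowest GC class and 0.786 at sites of the highest. The median log2 EB to ESC ratio of RAD21 reads was -0.17 at 3′ end sites and 0.05 at the other sites. From the lowest to the highest GC class it went from 1.02 to -0.52 at 3′ end sites and from 0.83 to -0.42 at all sites, and the other classes lay between. The share listed in EBs only was 36.4, 28.8, 12.3, 12.9 and 4.32% at 3′ end sites from the lowest to the highest class, and 36.6, 21.8, 15.8, 11.7 and 9.39% at all sites. Within classes 3′ end sites were thus below all sites in 3 of the 5 and above in the other 2. In the pooled IgG reads, EBs over ESCs gave 0.891 at 3′ end sites and 1.03 at the other sites, and 0.730 at the convergent ones, where the RAD21 ratio was 1.10. The part of GC content and of IgG reads in the EB to ESC ratios was not tested. Without chromosomes 6, 8 and 11 the median log2 ratio of 3′ end sites was -0.10, and 38.3% of 384 sites were listed in both. The values of the other sites without these chromosomes were not computed, so the difference from them is not known there.

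**Figure D5:**
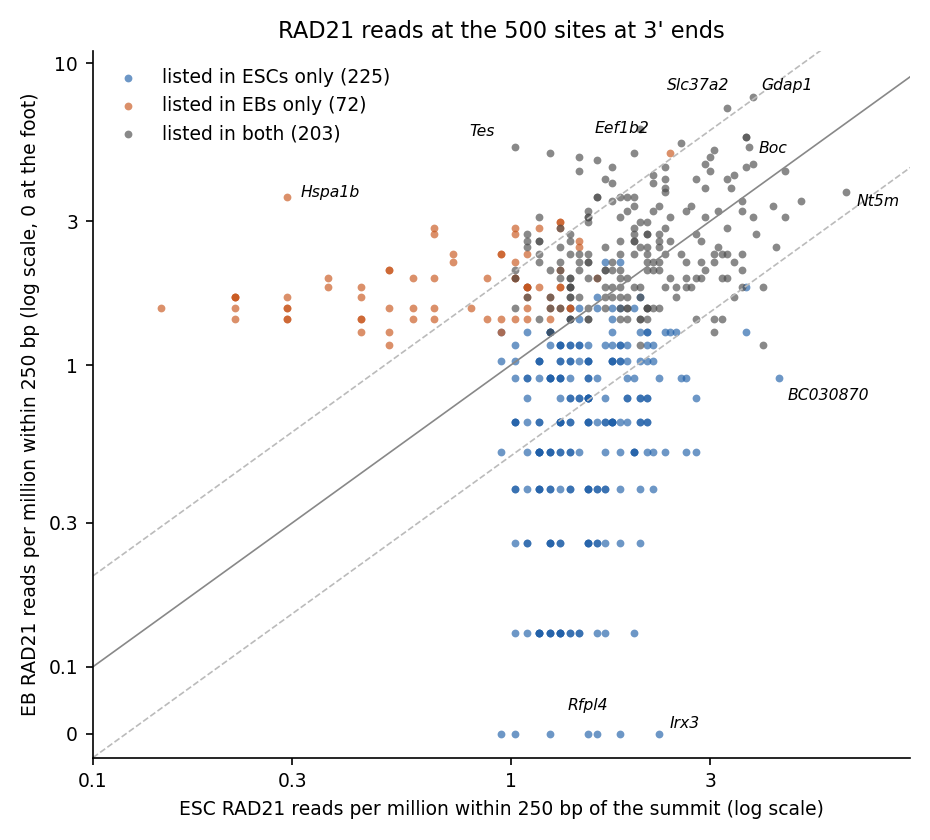
RAD21 reads, scaled to 1000000 autosomal reads, within 250 bp of the summit in ESCs (x axis) and EBs (y axis), both on log scales with an EB value of 0 drawn at the foot, for each of the 500 sites, coloured by listing. The solid line marks equal values and the dashed lines a 2-fold difference. Sites listed in both (203) gather at high values in both libraries, and the 7 sites with no EB read are all listed in ESCs only.

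The highest scores in ESCs belonged to genes of varied function. The deposited score is −10 times the log10 of the peak caller's p-value. Nt5m, a mitochondrial nucleotidase, led with a score of 629 at a summit 781 bp before its 3′ end (chromosome 11 at 59693689, in an exon of a non-coding transcript), where 87 ESC RAD21, 29 EB RAD21, 4 ESC IgG and 2 EB IgG reads were found. Next was Mab21l3 with 68 ESC RAD21, 27 EB RAD21, 2 ESC IgG and 3 EB IgG reads at a site 277 bp downstream of the end. Slc36a2, a proton-coupled amino acid transporter, followed with 59 ESC RAD21, 19 EB RAD21, 4 ESC IgG and 1 EB IgG reads in the 3′ UTR. At all 3 the ESC RAD21 library, the larger one, held the most reads. The intervals of the EB to ESC ratio were 0.374 to 0.908 at Nt5m, 0.433 to 1.11 at Mab21l3 and 0.321 to 0.971 at Slc36a2. Picking by ESC score favours sites with many ESC RAD21 reads. The ratios of these sites, here and in the next paragraph, are thus shifted towards ESCs by the choice, and their intervals do not allow for it. Nt5m and Slc36a2 lie on chromosome 11, where ESC IgG reads exceeded EB IgG reads 1.14-fold. The part of this in their ratios was not tested.

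The other high scores in ESCs were at Ttyh3, a chloride channel, Ebf1, a transcription factor of B cell development, BC030870, Upp1, a uridine phosphorylase, Srxn1, which reduces oxidised peroxiredoxins, Boc and Znrf1, a ubiquitin ligase. Ebf1 had 62 ESC RAD21, 24 EB RAD21, 3 ESC IgG and 2 EB IgG reads 235 bp after its end on chromosome 11. BC030870 was the exception in this group in having no EB peak: its site 434 bp after the gene (chromosome 8 at 67609687) held 60 ESC RAD21, 7 EB RAD21, 5 ESC IgG and 1 EB IgG reads, an ESC to EB ratio of 4.84 (2.21 to 12.5). The site at Znrf1, 194 bp after the end, was 3.45-fold (1.69 to 7.94) higher in ESCs, with 55 ESC RAD21, 9 EB RAD21, 5 ESC IgG and 2 EB IgG reads. Both lie on chromosome 8, where ESC IgG reads also exceeded EB IgG reads.

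In EBs, 7 of the 10 sites of highest score lay in a 3′ UTR, as did 1 of the 10 of highest score in ESCs, beside 158 (31.6%) of all 500 sites. These are sets of 10 picked by score, and the difference between them was not tested. Picking by EB score favours sites with many EB RAD21 reads. The EB to ESC ratios of these sites, here and in the next paragraph, are thus raised by the choice, and their intervals do not allow for it. Slc37a2, a sugar phosphate exchanger, led with a score of 487 in its 3′ UTR, 935 bp before the end (chromosome 9 at 37037669). Its reads were 45 in ESC RAD21, 55 in EB RAD21, 3 in ESC IgG and 1 in EB IgG, and the EB to ESC ratio was 2.17 (1.43 to 3.29). All autosomal sites of both lists had a median ratio of 1.31, with 1 read added. Chrm1, a muscarinic acetylcholine receptor, held 42 ESC RAD21, 40 EB RAD21, 2 ESC IgG and 3 EB IgG reads in its 3′ UTR on chromosome 19. Hoxa13, the last gene of the HoxA cluster, had a site 467 bp after its end (chromosome 6 at 52207226) with 50 ESC RAD21, 44 EB RAD21, 2 ESC IgG and 2 EB IgG reads. Gdap1, a protein of the mitochondrial outer membrane, held the most EB reads of these, 60, with 52 ESC RAD21, 8 ESC IgG and 6 EB IgG reads. Zfp703, a zinc finger repressor of transcription, had 32 ESC RAD21, 35 EB RAD21, 4 ESC IgG and 3 EB IgG reads 383 bp after its end.

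Among these 10 the EB to ESC ratio was highest at Tmed10, a cargo receptor of the early secretory pathway, at 3.37 (1.91 to 6.11), with 20 ESC RAD21, 38 EB RAD21, 3 ESC IgG and 1 EB IgG reads. Ppfia2, a scaffold protein of synapses, stood at 2.56 (1.53 to 4.35) with 27 ESC RAD21, 39 EB RAD21, 4 ESC IgG and 1 EB IgG reads. At Asrgl1, an asparaginase, the interval of 0.904 to 2.37 included 1. The remaining sites of the 10 are those of Fgfr1 and Eef1b2, described with their convergent partners.

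The 5 sites that follow were picked for the highest lower bound of the EB to ESC ratio. Their ratios thus describe the choice, and the intervals do not allow for it. The first was at Hspa1b, which encodes inducible heat shock protein Hsp70. Its summit in the 3′ UTR, 159 bp before the end (chromosome 17 at 35093540), held 4 ESC RAD21, 28 EB RAD21, 1 ESC IgG and 4 EB IgG reads, and the EB to ESC ratio was 12.4 (4.34 to 48.7). Reads could also come from Hspa1a, its near-identical neighbour, and how reads with several matches were placed is not given in the sources used here. Tes, an adhesion protein with LIM domains, held 14 ESC RAD21, 41 EB RAD21, 4 ESC IgG and 4 EB IgG reads at a summit 57 bp after its end, a ratio of 5.19 (2.77 to 10.3). Rap1a, a small GTPase, followed with 17 ESC RAD21, 39 EB RAD21, 6 ESC IgG and 3 EB IgG reads and a ratio of 4.06 (2.25 to 7.66). Aknad1 and Rgs7bp, a binding partner of RGS proteins, had only 12 and 13 EB RAD21 reads against 2 and 3 in ESCs, beside 4 ESC IgG reads in both, so that RAD21 did not exceed IgG in ESCs there. No CTCF match was found at these last 2 sites even at the looser threshold, while Tes matched at the stricter and Hspa1b and Rap1a at the looser one. The GC content of the 5 sites ran from 33.5 to 48.1%.

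Sites that were lower in EBs reached 0 reads. Irx3, a homeobox transcription factor, had 31 ESC RAD21, 0 EB RAD21, 4 ESC IgG and 1 EB IgG reads 737 bp after its end (chromosome 8 at 94321691). Against a floor of 3 reads in the EB library, which leaves out the counting error of the ESC reads, its level was at least 5.83-fold higher in ESCs, and the exact interval of the ratio began at 4.47. By the same measures the site 265 bp after Rfpl4, a ret finger protein-like gene expressed in oocytes, was at least 4.70-fold higher (exact interval from 3.55) with 25 ESC RAD21, 0 EB RAD21, 3 ESC IgG and 2 EB IgG reads. Glt25d2, a collagen galactosyltransferase, was at least 4.14-fold higher (from 3.09) with 22 ESC RAD21, 0 EB RAD21, 6 ESC IgG and 3 EB IgG reads. Galnt10, which starts mucin-type glycosylation, was at least 3.95-fold higher (from 2.94) with 21 ESC RAD21, 0 EB RAD21, 3 ESC IgG and 4 EB IgG reads. D930020B18Rik held 27 ESC RAD21, 1 EB RAD21, 3 ESC IgG and 1 EB IgG reads, an ESC to EB ratio of 15.2 (2.51 to 624). Irx3 lies on chromosome 8 and Galnt10 on chromosome 11, where ESC IgG reads exceeded EB IgG reads 1.23-fold and 1.14-fold. In all 5 sites the ESC RAD21 library alone stood above the other 3. They were picked for a low EB to ESC ratio and called for ESC RAD21 over IgG, so this describes the choice. The CTCF matches printed above for Rfpl4, Galnt10 and D930020B18Rik scored 25.7, 24.2 and 25.9 bits. The other printed matches scored from 13.8 bits at Hspa1b to 24.8 bits at Gpr1, with 20.6 bits at Nt5m, the site with the highest ESC score. Irx3 had a looser match alone, of 15.4 bits, Glt25d2 had no match, and the limit of the stricter threshold was 19.6 bits.

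At 10 genes 2 sites fell within 1 kb of the same 3′ end. At Upp1 the site 453 bp after the end held 62 ESC RAD21, 34 EB RAD21, 7 ESC IgG and 2 EB IgG reads, and the one 395 bp before it held 26 ESC RAD21, 5 EB RAD21, 3 ESC IgG and 0 EB IgG reads. Prdx2, a peroxiredoxin, had 25 ESC RAD21 and 12 EB RAD21 reads at one site and 23 and 16 at the other, towards the facing 3′ end of Junb, a subunit of AP-1. The same cells did not always list both: at Dse, which makes dermatan sulfate, the site 251 bp before the end was listed in EBs only, with 6 ESC RAD21, 14 EB RAD21, 1 ESC IgG and 1 EB IgG reads, and the site 677 bp before it in ESCs only, with 25 ESC RAD21, 8 EB RAD21, 2 ESC IgG and 3 EB IgG reads. Bcl2l1, an inhibitor of apoptosis, and Thbs4, a thrombospondin, each had 1 site on either side of the end, as had Copz2, Fam115e, Rgs7bp and 5330437I02Rik.

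In lists of genes of known role, the number of sites at 3′ ends was too small to set apart from the background. None of 27 annotated autosomal pluripotency genes had one, none of 28 lineage genes and none of 17 cohesin and CTCF genes, which allows shares of up to 12.8, 12.3 and 19.5% (exact 95% limits) beside 2.39% of all protein-coding 3′ ends. Among 23 genes of mRNA 3′ end processing, Papola, the poly(A) polymerase, had a site 278 bp after its end, with 21 ESC RAD21, 18 EB RAD21, 6 ESC IgG and 2 EB IgG reads.

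A site at the 3′ end went slightly more often with a site at the start of the same gene. This was so for 39 of the 511 genes (7.63%), beside 5.31% of 20649 genes without a 3′ end site, a difference of 2.32 points (0.301 to 4.97). Genes with a 3′ end site were longer, with a median of 19597 bp against 15623 bp. When genes were split into 4 classes of equal number by length the difference was 5.18 points (0.863 to 14.2) in the shortest class, with 5 of 66 genes, and its interval included 0 in the other 3, with 1.12, 1.86 and 1.26 points. Examples are Cited2, Snai2 and Clu, a transcriptional co-regulator, a transcription factor of epithelial to mesenchymal transition and a secreted chaperone, which were chosen after their values were seen.

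At the limit of the rule, the 2 nearest sites on either side of 1 kb were as follows. Thada, at 1000 bp, held 26 ESC RAD21, 15 EB RAD21, 3 ESC IgG and 2 EB IgG reads, and Cd34, at 999 bp, held 24, 16, 3 and 1 in the same order. Just outside, Ublcp1, at 1003 bp, held 27, 36, 6 and 2, and Sh3tc2, at 1008 bp, held 18, 19, 3 and 1. The 500 sites had a median of 21 ESC RAD21, 12 EB RAD21, 3 ESC IgG and 1 EB IgG reads, against 21, 12, 3 and 2 at the other sites. The median ratio of RAD21 to IgG was 5.21 in ESCs and 4.48 in EBs for 3′ end sites and for the other sites alike.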

How the data were processed

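ChIP-seq reads of R1/E ESCs and day 12 EBs with tagged RAD21 were deposited as aligned read positions on mm9, 1 line per read, and used here as read counts. The aligner is not given in the sources used here. The authors called peaks with MACS 1.4beta against the IgG libraries and deposited peak scores (−10 times the log10 p-value, none below 50.01 in ESCs) and summit heights, a pileup signal. No autosomal read position and strand occurred more than once in a library. Lines that could not be read (7 in the ESC IgG file and 1 in the EB IgG file, which breaks off within the X chromosome, not used here) were skipped.

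Groups were taken from the labels. Reads were moved to the fragment centre, using the distance of 204 bp (ESC) or 195 bp (EB) at which the strands agreed best, and counted within 250 bp of the summit per 1000000 autosomal reads, with 1 read added for RAD21 to IgG ratios, medians of log2 ratios and 2-fold counts. EB to ESC ratios of named sites, with their exact intervals, use the reads as counted. 3′ ends are those of the GENCODE vM1 gene records. Site densities use the sequence that meets the rule, without assembly gaps. The CTCF matrix was started from matches to a CTCF core motif and refined in 3 rounds from the best match of at least 10 bits per window, and thresholds came from a scan of all autosomes (19.6 and 10.3 bits). Repeats were not masked. Intervals are exact (Clopper-Pearson, Poisson, conditional binomial) or, for differences of shares, Newcombe's, all at 95%. The genes named are the 10 highest scores per cell type, the 5 highest and lowest EB to ESC ratios by the bound nearest to 1, the 5 convergent pairs with most RAD21 reads, members at listed genes, ends with most sites (1 of which is not reported here) and sites at the 1 kb limit. Members and lists were chosen with earlier results of these data known. Python 3.11.15, numpy 2.4.6, scipy 1.17.1, pandas 2.3.3, statsmodels 0.14.6, numba 0.67.0 and matplotlib 3.10.9 were used, and the scripts were tested on simulated data. Alternatives were other distances, merging rules, score limits, scalings, read windows and motif thresholds.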

Additional observations from a re-analysis of the deposited data

How the results depend on the processing

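Of 61 alternatives over 10 results, 39 left the value within the 95% interval of the reported one and 22 moved it beyond. The ratio of convergent to other ends, whose interval included 1 throughout, fell below 1 in 2 alternatives (0.811 and 0.944), and no other direction turned. Of the 61, 11, namely the unrefined matrix, the autosomes without 6, 8 and 11 and the GC classes, were chosen after seeing the data. The share of sites at 3′ ends was 1.38% within 500 bp of the end, 5.16% within 2 kb, 2.34% when over 2 kb from any start and 3.54% for ends of any protein-coding transcript. Density over all autosomes, 1.83-fold, was 1.63-fold for the ends of any transcript, and against the rest of the same GC class 1.19, 1.49 and 1.63-fold in classes 2, 3 and 5 from the lowest. The median distance was 365 bp downstream within 2 kb. The share listed in both was 33.5% with summits merged within 100 bp and 64.7% for sites with a score of at least 100 in at least 1 list. The same shares over all autosomal sites were not computed under these settings, so they do not set 3′ end sites apart. Convergent over other ends was 0.811 (0.550 to 1.17) for scores of at least 100, 0.944 for pairs within 1 kb and 1.21 (0.987 to 1.47) within 10 kb. The median log2 EB to ESC ratio was -0.35 with reads within 100 bp and -0.57 when scaled to the sites listed in both, and its interval included 0 when scaled by chromosome (-0.14), with IgG reads subtracted (-0.14) and without chromosomes 6, 8 and 11 (-0.10). The RAD21 to IgG ratio was 7.35 (ESC) within 100 bp, 4.13 (ESC) and 3.98 (EB) within 500 bp, and 6.52 (ESC) and 6.63 (EB) with 0.1 read added. The share with a CTCF match was 89.0% at a rate of 1e-04, 34.2% within 75 bp and 61.6% with the unrefined matrix. Its excess over other sites had an interval above 0 in these and the 2 other settings tried, between 3.39 and 8.36 points, but against sites away from starts and ends the looser rate gave 2.38 (-0.704 to 4.89). The causes of these changes were not tested. Depth limits single sites: with a median of 12 EB RAD21 reads, a 2-fold change at one site is often within its interval. No paired analysis was possible because each group has 1 library, and no replicate could be left out.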
